A study of Mus musculus and Homo sapiens with 22 samples.

Results

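The comparison described here sets 4T1 cells given 2.5 µM ENMD-2076 against 4T1 cells given 1.25 µM, with 2 libraries at each dose. These 4 libraries, of 22 in the series, were chosen by cell line, compound and dose as labelled, among the tables of 4T1 that also hold DMSO 1 and 2. Doses named below are those of the labels. The growth protocol gives 1 or 2 µM, and the column headers of both pairs give 10 µM and no compound. In both groups cells were plated 24 h before they were exposed to the compound for 24 h, and libraries were made from total RNA. Whether RNA was selected before sequencing is not given in the sources used here. The DMSO pair, treated with vehicle for the same time, took no part in the contrast and is given as a level beside it. The labels do not say that the 2 libraries of a dose came from separate cultures, so p-values measure no more than how these libraries scatter, which could be technical scatter alone. Since dose and everything else that set the pairs apart (dish, harvest, RNA preparation) go together in this design, they cannot be told apart.

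4T1 is a mouse mammary carcinoma line of epithelial character, and ENMD-2076 is a kinase inhibitor aimed mainly at Aurora A, with activity against receptor tyrosine kinases. Aurora A matures centrosomes and builds the spindle, and Aurora B corrects chromosome attachment and drives cytokinesis as part of the chromosomal passenger complex. Both genes are transcribed mostly in G2 and M, so their mRNA, like that of other mitotic genes, follows the share of dividing cells, whereas genes of DNA replication are driven by E2F factors at the start of S phase.

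The libraries held 20.7 and 14.4 M counted reads at 2.5 µM, against 14.4 and 30.9 M at 1.25 µM. Of 13079 genes tested, 10225 differed (78.2%; edgeR quasi-likelihood test, Benjamini-Hochberg adjusted p under 0.05), 5032 of them higher at 2.5 µM (38.5%) and 5193 lower (39.7%). By more than 2-fold, 3044 were higher (23.3%) and 3331 lower (25.5%), so any group of genes is read below against a background in which most genes differed. The root mean square log2 difference between libraries was 0.286 within the 2.5 µM pair and 0.24 within the 1.25 µM pair, and 1.31 to 1.32 across the doses. Libraries of 1.25 µM differed from DMSO by 0.711 and 0.733, and those of 2.5 µM by 1.16. On the first principal component, which held 77.2% of the variance, the 2.5 µM libraries stood at -89.4 and the 1.25 µM libraries at 57.1 and 57.0, with DMSO at 32.1 and 32.7. DMSO thus lay between the doses on this component, nearer to the lower dose, and the lower dose did not lie between DMSO and the higher dose.

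Markers of the labelled cell type were present at both doses. Epcam, an epithelial adhesion molecule, had 308 and 305 CPM (read counts scaled to library size with TMM factors) at 2.5 µM, against 287 and 285 CPM at 1.25 µM. Krt8, a keratin of simple epithelia, had 920 and 888 CPM at 2.5 µM, against 802 and 789 CPM at 1.25 µM. Markers of basal cells differed among themselves, with Krt5 and Krt17 at 0 in all 4 libraries. Krt14 had 6.36 and 3.41 CPM against 48.9 and 47.3 CPM, with 0.561 and 0.254 CPM in DMSO. Trp63 had 0 and 0 CPM against 0.714 and 0.823 CPM. Unlike Epcam and Krt8, the epithelial markers as a list were mostly lower at 2.5 µM, with 1 of 11 tested higher and 9 lower. The list summed to 2880 and 2810 CPM at 2.5 µM, against 4310 and 4170 CPM at 1.25 µM. Krt18, the partner of Krt8, had 467 and 462 CPM against 756 and 759 CPM, and Cdh1, or E-cadherin, had 446 and 433 CPM against 685 and 697 CPM. Of 12 haematopoietic markers 5 were at 0, and the list summed to 19.8 and 19.5 CPM at 2.5 µM, against 31.1 and 35.4 CPM at 1.25 µM. Of the 4 tested, 1 was higher and 3 lower. Csf1r had 0.45 and 0.397 CPM against 7.74 and 11.4 CPM, with 0.0935 and 0.712 CPM in DMSO. Cd79a went the other way, at 6.02 and 6.11 CPM against 0.119 and 0.256 CPM. Of 10 fibroblast markers 4 were at 0, with sums of 35 and 31 CPM at 2.5 µM and of 72.8 and 83.7 CPM at 1.25 µM. That difference in sums lay in 1 gene, the matrix protein gene Postn, at 1.35 and 1.19 CPM against 50.2 and 56.4 CPM, whereas Pdgfra, which made up most of the rest, had 33.0 and 28.7 CPM against 20.5 and 25 CPM. Endothelial markers, 2 of 9 at 0, summed to 5.85 and 8.73 CPM at 2.5 µM, against 0.535 and 0.227 CPM at 1.25 µM, and gut and liver markers, 6 of 11 at 0, to 16.1 and 13.3 CPM against 1.01 and 0.681 CPM. The 4 Y-linked genes had no reads in any of the 6 libraries. In bulk RNA, fewer cells of a kind and less RNA per cell cannot be told apart.

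The genes of cell division were higher at the higher dose. Aurka had 69.5 and 65.9 CPM in the 2.5 µM libraries, against 7.62 and 7.58 CPM in the 1.25 µM libraries. The doses did not overlap (log2 difference 3.16, SE 0.13, edgeR adjusted p = 2.39e-17), and the DMSO libraries, at 72.1 and 57.4 CPM, stood on either side of the 2.5 µM values. Aurkb had 31.7 and 33.4 CPM at 2.5 µM, against 2.50 and 3.10 CPM at 1.25 µM. That difference was 3.50 on the log2 scale (SE 0.20, edgeR adjusted p = 1.43e-14), with DMSO above both doses at 50.1 and 44.6 CPM. Of 10 tested Aurora kinases and partners 8 were higher and 1 lower. Birc5, or survivin, the passenger subunit that targets Aurora B, had 89.8 and 89.3 CPM at 2.5 µM, against 5.71 and 5.76 CPM at 1.25 µM (log2 difference 3.96, SE 0.13, edgeR adjusted p = 7.44e-20). Ajuba, a scaffold that activates Aurora A and also acts in Hippo signalling, was the member that went the other way, at 128 and 127 CPM against 219 and 198 CPM (log2 difference -0.71, SE 0.07, edgeR adjusted p = 1.43e-09).

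All 20 mitotic cyclins, kinases and phosphatases rose, with a median log2 difference of 2.79, where the median of all genes tested was -0.05. Foxm1, the transcription factor of G2 genes, had 148 and 144 CPM at 2.5 µM, against 10.3 and 8.52 CPM at 1.25 µM (log2 difference 3.98, SE 0.11, edgeR adjusted p = 3.09e-21). Mybl2, the MYB protein of the MuvB complex that acts on the same promoters, had 45.7 and 48.6 CPM against 1.73 and 4.12 CPM. The difference for Mybl2 was 3.89 on the log2 scale (SE 0.22, edgeR adjusted p = 8.11e-15), and both genes stood above their DMSO libraries at 2.5 µM and below them at 1.25 µM. Relative to the same DMSO pair, which the 2 values share, the list's median was -0.19 at 2.5 µM and -2.87 at 1.25 µM.

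Among 32 kinetochore genes 28 were higher and 3 lower (median 2.44), with 1 lower without library 2 of 1.25 µM. Nuf2, a subunit of the NDC80 complex that holds microtubules, had 80.5 and 75.2 CPM at 2.5 µM, against 3.15 and 4.74 CPM at 1.25 µM (log2 difference 4.24, SE 0.15, edgeR adjusted p = 1.02e-18). Nsl1, of the MIS12 complex, differed by 4.73 (SE 0.21, edgeR adjusted p = 9.31e-17). Of 24 spindle motors and cytokinesis genes 23 were higher and none lower (median 2.61), among them the kinesin gene Kif15 (3.29, SE 0.18, edgeR adjusted p = 7.48e-15) and Ckap2l, a spindle protein, with 132 and 118 CPM against 8.57 and 9.62 CPM. Of 16 genes of the anaphase-promoting complex and its substrates 14 were higher and 1 lower, or 11 and 3 under total-count scaling, with a median of 0.95. The ligase's partner Ube2c, an E2 enzyme, had 73.6 and 62.2 CPM against 7.62 and 7.84 CPM, and its inhibitor Fbxo5, or Emi1, had 37.3 and 42.3 CPM against 3.09 and 4.00 CPM. The condensin gene Ncapg2 had 206 and 205 CPM against 9.70 and 14.7 CPM, while the cohesin gene Stag2 went the other way, at 71.1 and 70.2 CPM against 159 and 187 CPM. Within the list of condensin and cohesin, 17 of 21 members were higher and 4 lower.

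**Figure D1:**
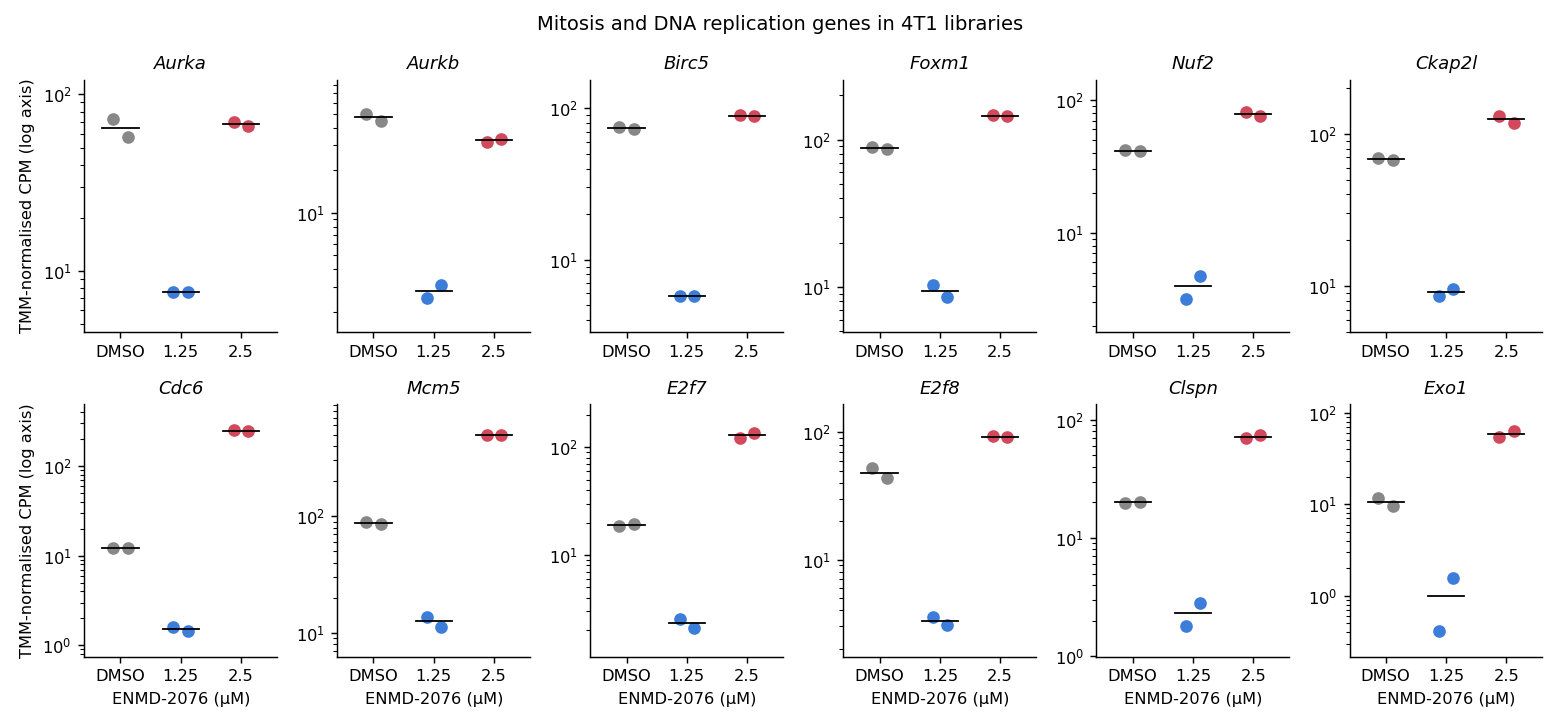
Levels of 12 genes of mitosis (upper row) and DNA replication (lower row) in DMSO, 1.25 µM and 2.5 µM libraries, as TMM-normalised CPM on log axes that differ between panels; each point is a library and each line the mean of 2. In every panel both 1.25 µM libraries lie below the other 4, and in the lower row both 2.5 µM libraries lie above DMSO.

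DNA replication genes were higher as well, and their median level at 2.5 µM was also above DMSO. Of 23 genes of origin licensing and the MCM helicase 20 were higher and 3 lower (1 lower without library 2 of 1.25 µM; median log2 difference 2.97), with a median against DMSO of 1.26 at 2.5 µM and of -1.45 at 1.25 µM. Cdc6, which loads the helicase onto origins, had 249.8 and 243 CPM at 2.5 µM, against 1.61 and 1.45 CPM at 1.25 µM, with 12.2 and 12.3 CPM in DMSO. Its difference of 7.35 on the log2 scale (SE 0.12, edgeR adjusted p = 1.76e-25) was the largest in that list. Mcm5, a helicase subunit, had 491 and 500.3 CPM at 2.5 µM, against 13.8 and 11.3 CPM at 1.25 µM, and 88.5 and 86.6 CPM in DMSO (log2 difference 5.34, SE 0.09, edgeR adjusted p = 2.63e-25). Orc5, an origin recognition subunit, was lower, with 8.22 and 14.8 CPM against 19.0 and 22.4 CPM (log2 difference -0.88, SE 0.21, edgeR adjusted p = 5.42e-04).

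The replication fork list had 26 of 27 members higher and none lower (median 2.56). Clspn, or claspin, the fork protein that relays signals to CHK1, had 69.5 and 74.6 CPM against 1.78 and 2.81 CPM (log2 difference 4.88, SE 0.17, edgeR adjusted p = 3.55e-19). In nucleotide synthesis 18 of 20 genes were higher and 2 lower (median 2.04), with Mthfd2, a mitochondrial enzyme of folate metabolism, at 92.8 and 88.1 CPM against 5.89 and 7.38 CPM (log2 difference 3.74, SE 0.13, edgeR adjusted p = 3.59e-19). Dctd, a deaminase of dCMP, was lower, with 6.14 and 7.86 CPM against 20.9 and 23.1 CPM. Of the E2F family and G1/S cyclins 16 of 23 were higher and 6 lower. The repressors E2f7 and E2f8, themselves E2F targets, differed by 5.83 (SE 0.14, edgeR adjusted p = 1.71e-22) and 4.82 (SE 0.14, edgeR adjusted p = 9.10e-21), while E2f5, which acts with pocket proteins in resting cells, differed by -2.23 (SE 0.21, edgeR adjusted p = 5.41e-10). E2f7 had 123 and 135 CPM at 2.5 µM, against 2.56 and 2.10 CPM at 1.25 µM. Ccnd1, cyclin D1, and Skp2, the receptor that marks p27 for destruction, were picked after their values were seen. Ccnd1 had 1188 and 1143 CPM against 72.4 and 77.0 CPM, and Skp2 had 355 and 364 CPM against 20.8 and 21.1 CPM, and the 2.5 µM libraries of both genes again stood above DMSO (693 and 694 CPM for Ccnd1, 39.1 and 40.0 CPM for Skp2).

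Repair genes that work in S phase were higher too. Of 26 tested genes of homologous recombination and the Fanconi pathway 19 were higher and 3 lower (median 2.22). The nuclease gene Exo1 had 53.9 and 63.9 CPM against 0.416 and 1.56 CPM (log2 difference 5.66, SE 0.24, edgeR adjusted p = 2.13e-17), with 11.8 and 9.66 CPM in DMSO. In the replication stress checkpoint 7 of 14 were higher and 5 lower, or 6 and 7 under total-count scaling. Chek1, the kinase CHK1, differed by 3.32 (SE 0.15, edgeR adjusted p = 9.53e-17) and Trp53bp1, a repair scaffold, by -1.36 (SE 0.11, edgeR adjusted p = 1.37e-11). Of 61 replication-dependent histone genes 24 had enough reads to be tested, and 16 of these were higher and 3 lower, with 1 lower without either library of 1.25 µM and with the replicate block, and none with DESeq2. Members with few reads at 1.25 µM, such as Hist1h2bg (245 and 147 reads against 1 and 13), could pass the filter through the higher dose alone. Such members could be called in 1 direction only, so the split of histone calls is not free of that choice. All 61 genes together, whatever the filter, took 0.00936 and 0.00866% of reads at the higher dose, against 0.00565 and 0.0047% at 1.25 µM. Hist1h4i had 22.5 and 19.6 CPM against 1.19 and 1.42 CPM, where DMSO had 3.13 and 2.24 CPM. Histone genes are near-identical copies whose mRNA lacks a poly(A) tail, so the split of reads between them is uncertain and their level also depends on RNA selection, a step not given in the sources used here.

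Because these genes are textbook targets of E2F or of the MuvB complex, their promoters were searched for 3 motifs on both strands, in windows of 250 bases before to 50 after the start (RefSeq, GRCm38.p6). The E2F motif was TTTCCCGC, TTTGGCGC or TTTCGCGC, the CHR element TTTGAA and the NF-Y box CCAAT. The E2F motif was found in 9 of 18 matched licensing promoters (50%), 6 of 23 fork promoters (26.1%) and 2 of 23 spindle promoters (8.70%), against 1.91% of 27025 promoters in all and 3.69% of those of tested genes. The CHR letters stood in 19 of 23 spindle promoters (82.6%), 12 of 30 kinetochore promoters (40.0%) and 5 of 18 licensing promoters (27.8%), against 18.1% of all promoters and 11.8% of those of tested genes. CCAAT, found in 37.9% of all promoters, was in 14 of 23 spindle (60.9%) and 11 of 18 licensing promoters (61.1%). It was also in 11 of 15 mitotic kinase (73.3%), 20 of 30 kinetochore (66.7%) and 11 of 23 fork promoters (47.8%). For the other lists searched, the E2F motif was in 4 of 30 kinetochore (13.3%) and 1 of 15 mitotic kinase promoters (6.67%). The CHR letters were in 7 of 15 mitotic kinase (46.7%) and 1 of 23 fork promoters (4.35%). A match is a string of letters, not a bound site. The 250 bases before the start are shown for Cdc6 (chr11:98907901-98908150) and E2f7 (chr10:110745189-110745438), on the plus strand, with the E2F match in capitals, as a replication pair. They are shown for Ckap2l (chr2:129297213-129297462, minus strand) and Ube2c (chr2:164769679-164769928, plus strand) with the CHR match in capitals, as a mitotic pair.
Cdc6: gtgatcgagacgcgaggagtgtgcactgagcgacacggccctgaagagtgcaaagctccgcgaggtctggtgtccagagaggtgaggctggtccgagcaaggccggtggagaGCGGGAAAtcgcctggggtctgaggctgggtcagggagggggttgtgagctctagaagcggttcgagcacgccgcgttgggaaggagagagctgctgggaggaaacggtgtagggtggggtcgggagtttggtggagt
E2f7: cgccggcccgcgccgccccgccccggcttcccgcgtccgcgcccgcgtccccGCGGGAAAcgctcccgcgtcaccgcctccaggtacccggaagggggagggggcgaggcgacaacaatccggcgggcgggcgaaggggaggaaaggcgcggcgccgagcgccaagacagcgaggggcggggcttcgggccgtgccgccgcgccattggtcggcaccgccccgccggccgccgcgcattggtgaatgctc
Ckap2l: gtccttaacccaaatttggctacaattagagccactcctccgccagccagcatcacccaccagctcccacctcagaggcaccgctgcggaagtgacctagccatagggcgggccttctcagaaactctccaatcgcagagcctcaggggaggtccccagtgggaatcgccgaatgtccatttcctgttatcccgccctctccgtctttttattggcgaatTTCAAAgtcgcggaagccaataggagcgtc
Ube2c: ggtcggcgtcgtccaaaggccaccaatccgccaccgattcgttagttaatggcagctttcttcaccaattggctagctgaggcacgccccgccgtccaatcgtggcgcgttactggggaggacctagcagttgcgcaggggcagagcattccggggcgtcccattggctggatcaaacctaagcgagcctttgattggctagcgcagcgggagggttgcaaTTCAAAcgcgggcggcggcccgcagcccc
Each holds 1 such match in this stretch, read on the strand opposite to the spelled motif. It begins 138 bases before the RefSeq start in Cdc6 and 198 in E2f7, against 30 in Ckap2l and 29 in Ube2c. For each gene the first start listed was used. In the GENCODE annotation Cdc6 begins at 98907801 and Ube2c at 164769898, so these 2 matches lie inside the annotated genes.

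Set beside DMSO, most genes of the mitotic and fork lists did not follow the labelled dose. Both 1.25 µM libraries were the lowest of the 6 for 2586 of all 13079 genes tested (19.8%), and for 20 of 20 mitotic kinase genes, 23 of 24 spindle genes, 26 of 27 fork genes, 28 of 32 kinetochore genes and 20 of 23 licensing genes. It was less so in 3 related lists: 13 of 23 genes of the E2F family and G1/S cyclins and 7 of 14 of the replication stress checkpoint were lowest at 1.25 µM, and among replication-dependent histones 3 of 24 were (12.5%), with 4 rising in dose order. They were the highest of the 6 for 3245 genes (24.8%). Genes whose libraries stood in dose order without overlap numbered 1292 going up from DMSO through 1.25 to 2.5 µM (9.88%) and 1358 going down (10.4%). The lists that went up in that order were others: 23 of 31 proteasome genes, 12 of 13 mitochondrially encoded mRNAs, 17 of 29 nuclear genes of oxidative phosphorylation and 13 of 24 genes of cholesterol synthesis and uptake. These are counts of levels with no test of their own.

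**Figure D2:**
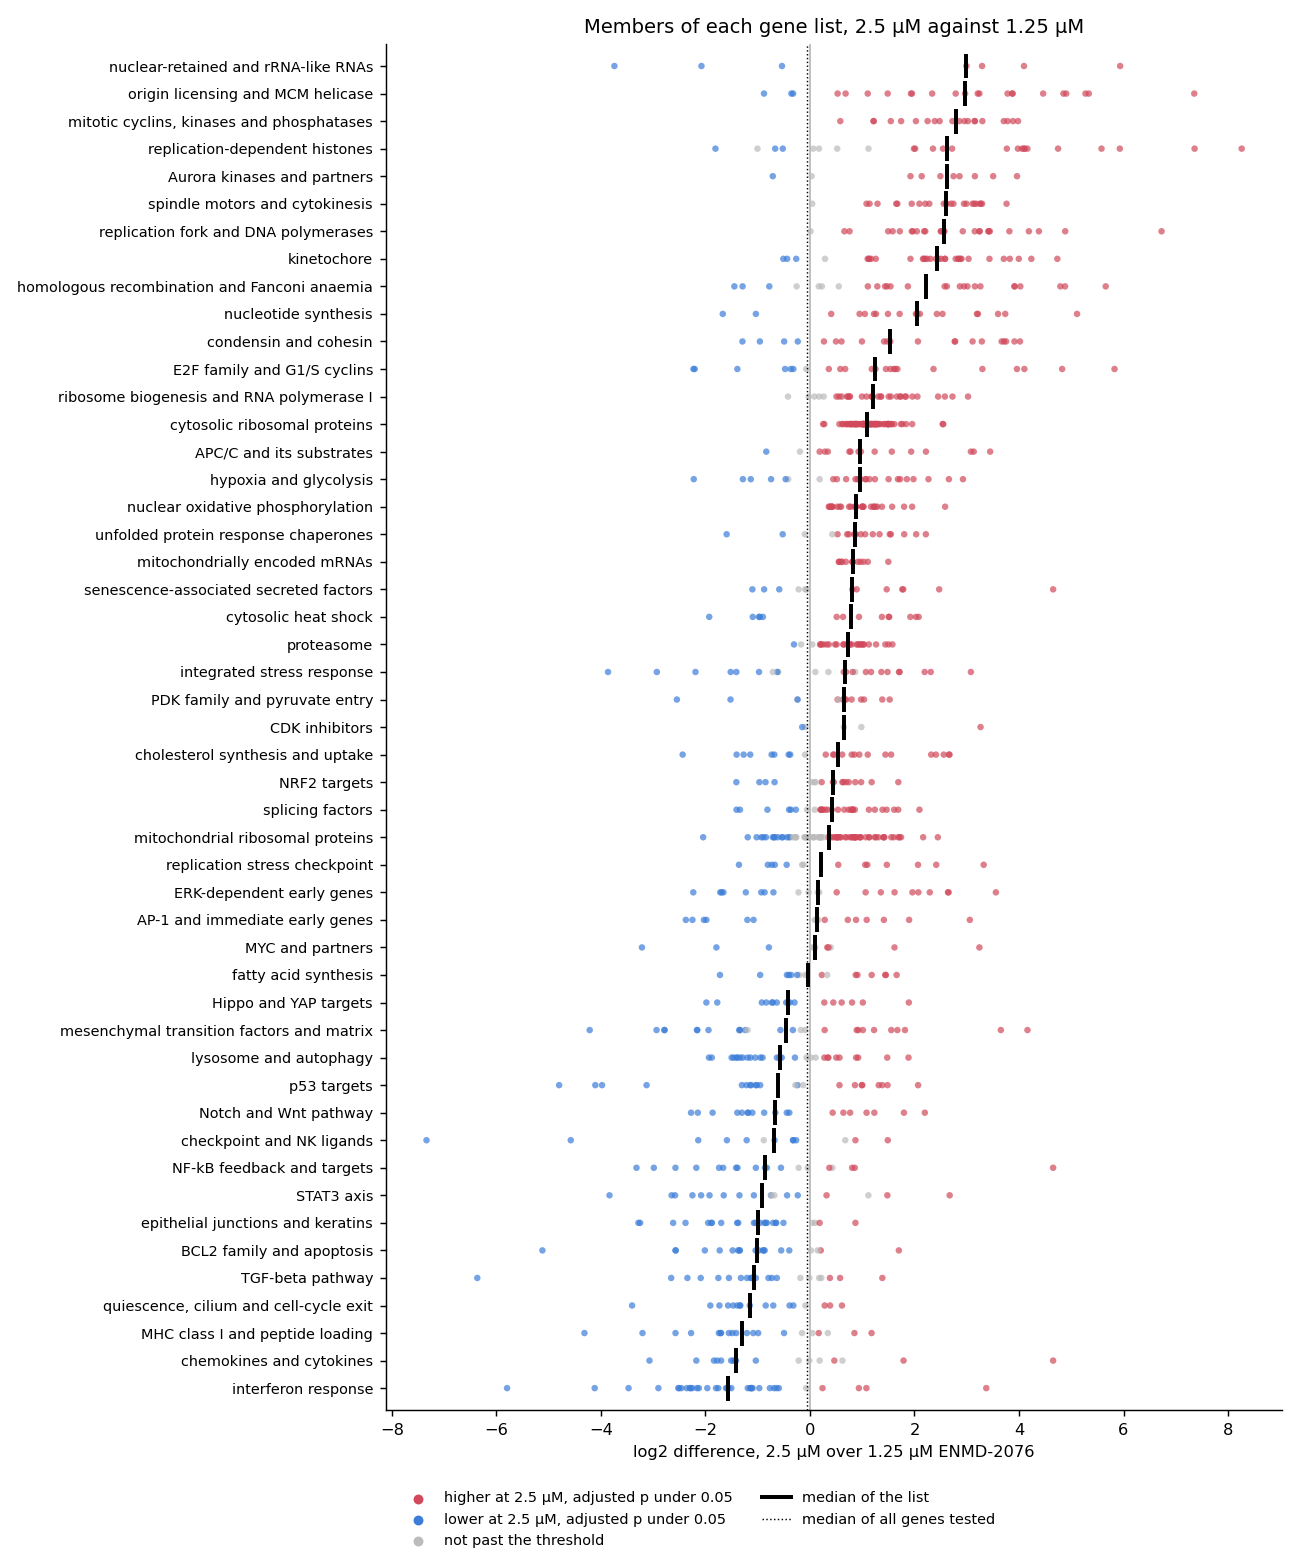
Log2 difference of 2.5 µM over 1.25 µM ENMD-2076 for each tested member of 49 gene lists; red points were higher and blue points lower at 2.5 µM past the threshold, and grey points did not pass it. Bars mark list medians, which run from -1.57 (interferon response) to 2.99 (nuclear-retained and rRNA-like RNAs), and the dotted line marks the median of all genes tested, -0.05. The list with the highest median has 7 tested members, 4 higher and 3 lower, and its median is -0.53 without mitochondrial and rRNA-like genes. Values are on the TMM scale, and total-count scaling turns the sign of the medians of AP-1, ERK-dependent, MYC, mitochondrial ribosomal protein and replication stress genes.

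Genes that make proteins were higher at 2.5 µM. All 78 tested cytosolic ribosomal protein genes rose, with a median log2 difference of 1.10, and 74 of them had their lowest levels at 1.25 µM. Rps2, of the small subunit, had 1543 and 1460 CPM at 2.5 µM, against 269 and 245 CPM at 1.25 µM, and 406 and 412 CPM in DMSO (log2 difference 2.55, SE 0.07, edgeR adjusted p = 1.14e-21). Ribosomal protein genes have many processed copies in the genome, so reads may be shared between them. In ribosome biogenesis and RNA polymerase I, 28 of 33 genes were higher and none lower (median 1.20), or 26 and 3 under total-count scaling, and 1 was lower without library 2 of either dose. Nolc1, a nucleolar scaffold, had 776 and 774 CPM against 99.7 and 91.3 CPM (log2 difference 3.02, SE 0.07, edgeR adjusted p = 9.20e-23). Myc itself, named after its values were seen, went the other way, with 34.3 and 41.8 CPM against 132 and 129 CPM, and 237 and 232 CPM in DMSO (log2 difference -1.79, SE 0.10, edgeR adjusted p = 3.23e-15).

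Mitochondrial and proteolytic genes were higher at 2.5 µM by smaller amounts. All 29 nuclear genes of oxidative phosphorylation were higher (median 0.89), such as Cycs, cytochrome c, with 227 and 216 CPM against 39.4 and 34.9 CPM (log2 difference 2.59, SE 0.08, edgeR adjusted p = 8.57e-20). All 13 mitochondrially encoded mRNAs were higher (median 0.82), and mitochondrial genes took 8.83 and 8.72% of reads at 2.5 µM, against 6.21 and 7.09% at 1.25 µM. mt-Nd5, a subunit of complex I, had 5319 and 5412 CPM against 2321 and 2659 CPM, with 1323 and 1354 CPM in DMSO. Of 31 proteasome genes 28 were higher and 1 lower (median 0.73), or 20 and 6 under total-count scaling and with 2 lower without library 1 of either dose, such as Psmd1, a base subunit, with 582 and 545 CPM against 195 and 202 CPM. For mitochondrial ribosomal proteins 39 of 76 were higher and 14 lower, but 27 and 29 under total-count scaling, which put the median of all genes at -0.47 where TMM put it at -0.05.

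Metabolic genes were split. In hypoxia and glycolysis 19 of 26 were higher and 5 lower (median 0.95). Ldha, which turns pyruvate into lactate, had 2973 and 2802 CPM at 2.5 µM, against 450.0 and 465 CPM at 1.25 µM (log2 difference 2.66, SE 0.06, edgeR adjusted p = 1.71e-22), and Aldoc, the aldolase of brain, had 21.8 and 23.9 CPM against 113 and 100 CPM. In cholesterol synthesis and uptake 15 of 24 were higher and 8 lower (median 0.54). Msmo1, a sterol methyl oxidase gene, had 2268 and 2016 CPM against 321 and 358 CPM (log2 difference 2.66, SE 0.07, edgeR adjusted p = 1.65e-21), and Ebp, a sterol isomerase gene, had 15.1 and 12.2 CPM against 72.5 and 76.1 CPM.

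Stress pathways moved in part. In the integrated stress response, the ATF4 programme that answers amino acid shortage, 12 of 24 genes were higher and 7 lower (median 0.67). Psat1, of serine synthesis, had 591 and 541 CPM at 2.5 µM, against 65.0 and 68.7 CPM at 1.25 µM, and Nupr1, a stress-induced chromatin protein, had 17.6 and 22.9 CPM against 314 and 270.1 CPM. The log2 differences were 3.08 (SE 0.07) and -3.86 (SE 0.10), with edgeR adjusted p = 1.55e-22 and 2.21e-21. Of 19 chaperones of the unfolded protein response 15 were higher and 2 lower (median 0.87), with Manf at 287 and 278 CPM against 66.3 and 56.1 CPM and Xbp1, the pathway's transcription factor, at 21.5 and 17.1 CPM against 59.9 and 57.6 CPM.

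Most members of the apoptosis and quiescence lists were lower at 2.5 µM. The 5 tested CDK inhibitors, described below, had 1 higher and 1 lower. Of 20 tested BCL2 family and apoptosis genes 2 were higher (1 without either library of 2.5 µM) and 16 lower at 2.5 µM (median -1.01). Bmf, a BH3 protein that binds and blocks BCL2, had 5.57 and 5.96 CPM at 2.5 µM, against 198 and 201 CPM at 1.25 µM, and 27.0 and 26.2 CPM in DMSO. The log2 difference was -5.12 (SE 0.11, edgeR adjusted p = 2.29e-23), so Bmf stood below DMSO at one dose and above it at the other. Bok, a BAX-like effector, was higher, at 78.3 and 72.1 CPM against 22.7 and 23.5 CPM. Birc3, an inhibitor of apoptosis, was lower like Bmf, at 3.04 and 2.38 CPM against 15.5 and 17.2 CPM. Of 22 p53 targets 8 were higher and 12 lower (median -0.62). Gadd45a, which slows the G2/M transition, had 2.65 and 4.76 CPM against 96.2 and 102 CPM (log2 difference -4.80, SE 0.16, edgeR adjusted p = 1.88e-19), and the death receptor gene Fas had 2.25 and 3.81 CPM against 51.1 and 50.2 CPM. In the list of quiescence and cell-cycle exit 3 of 17 members were higher and 13 lower (median -1.15), or none and 14 under total-count scaling, led by Ccng2, an atypical cyclin raised in arrested cells, with 11.8 and 14.1 CPM against 131 and 139.6 CPM.

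Most interferon and antigen presentation genes were lower at 2.5 µM. Of 36 tested interferon response genes 30 were lower and 4 higher (median -1.57), with 2 higher without library 1 of 1.25 µM. At 1.25 µM 24 of the 36 had their highest levels. Parp14, an interferon-induced ADP-ribosyltransferase, had 9.29 and 8.73 CPM at 2.5 µM, against 96.3 and 104 CPM at 1.25 µM, and 35.3 and 31.5 CPM in DMSO (log2 difference -3.47, SE 0.12, edgeR adjusted p = 3.24e-19). Ifih1, the RNA sensor MDA5, differed by -2.90 (SE 0.19, edgeR adjusted p = 2.76e-13). Cgas, the sensor of cytosolic DNA, stood apart from them with 44.5 and 52.0 CPM at 2.5 µM, against 2.92 and 5.82 CPM at 1.25 µM (log2 difference 3.37, SE 0.20, edgeR adjusted p = 3.05e-14).

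In the list of MHC class I and peptide loading 3 of 20 genes were higher and 14 lower (median -1.31), or none and 17 under total-count scaling, and 1 was higher without library 2 of 2.5 µM. H2-T23, which encodes the nonclassical molecule Qa-1, had 6.64 and 7.54 CPM against 143 and 138 CPM (log2 difference -4.32, SE 0.11, edgeR adjusted p = 1.90e-21), and Nlrc5, the class I transactivator, had 5.91 and 3.65 CPM against 38.1 and 51.9 CPM. Copies of class I genes are alike, which makes the split between them uncertain. The classical genes H2-K1 and H2-D1, chosen after their values were seen, did not pass (log2 differences -0.15 and 0.05, edgeR adjusted p = 0.176 and 0.494).

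Of 19 NF-kB targets 4 were higher and 12 lower (median -0.86), with the inhibitor gene Nfkbie at 4.17 and 4.76 CPM against 46.4 and 42.4 CPM. Of 18 genes of the STAT3 axis 3 were higher and 12 lower (median -0.91): Lcn2, lipocalin 2, had 0.957 and 1.11 CPM against 12.3 and 16.9 CPM, and Socs3, the feedback inhibitor, had 12.6 and 11.6 CPM against 4.34 and 4.32 CPM. Among 17 tested chemokines and cytokines 3 were higher and 10 lower (median -1.41), and 1 higher and 12 lower under total-count scaling, with Cxcl16, a membrane-bound chemokine, at 12.6 and 9.45 CPM against 89.1 and 98.6 CPM. The chemokine and cytokine genes called higher were 1 without library 2 of 2.5 µM or library 1 of 1.25 µM, without the filter and with DESeq2, and those of the STAT3 axis were 1 without either of the same libraries. Ccl5 and Cd274 were named outside the rule. Ccl5, which attracts T cells, had 1.80 and 0.238 CPM against 3.33 and 4.43 CPM (log2 difference -1.84, SE 0.53, edgeR adjusted p = 0.00308), and Cd274, the PD-L1 gene, had 4.62 and 4.21 CPM against 2.68 and 2.84 CPM and did not pass (0.68, SE 0.37, edgeR adjusted p = 0.0965). C3, a complement component and among the 12 largest falls of all genes, had 10.2 and 8.97 CPM at 2.5 µM, against 436 and 489 CPM at 1.25 µM (log2 difference -5.58, SE 0.10, edgeR adjusted p = 4.91e-25).

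Most junction genes were lower at 2.5 µM as well. Of 24 tested epithelial junction and keratin genes 2 were higher (1 without library 1 of 2.5 µM) and 20 lower (median -1.0). Cldn4, a claudin of tight junctions, had 48.8 and 49.5 CPM at 2.5 µM, against 500.3 and 456 CPM at 1.25 µM (log2 difference -3.28, SE 0.08, edgeR adjusted p = 1.43e-22). Mesenchymal genes were split, with 10 of 26 higher and 12 lower. Thbs1, thrombospondin, had 77.2 and 85.4 CPM against 1493 and 1519 CPM (log2 difference -4.21, SE 0.07, edgeR adjusted p = 3.11e-25), and Vim, vimentin, had 1346 and 1357 CPM against 398 and 369.5 CPM. In the TGF-beta pathway 3 of 22 were higher and 15 lower (median -1.07), or 1 and 17 under total-count scaling, among them Ltbp2, a matrix protein of the latent TGF-beta binding family, with 39.1 and 37.6 CPM against 234 and 249 CPM. Among the fibroblast markers given above, Postn was lower and Pdgfra was not, and Col3a1, Pdgfrb, Lum and Thy1 were at 0 in all 4 libraries.

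ERK-dependent early genes stood below DMSO at both doses, with medians of -1.34 at 2.5 µM and -1.59 at 1.25 µM that share the DMSO libraries. Between the doses 10 of 22 were higher and 8 lower, and the median of 0.16 was -0.25 under total-count scaling. Etv4 had 33.7 and 38.5 CPM at 2.5 µM, against 3.51 and 2.75 CPM at 1.25 µM, and Etv1, a related ETS factor, had 7.71 and 8.50 CPM against 37.0 and 38.9 CPM. Their log2 differences were 3.56 (SE 0.20) and -2.23 (SE 0.16), with edgeR adjusted p = 6.76e-15 and 1.54e-12.

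**Figure D3:**
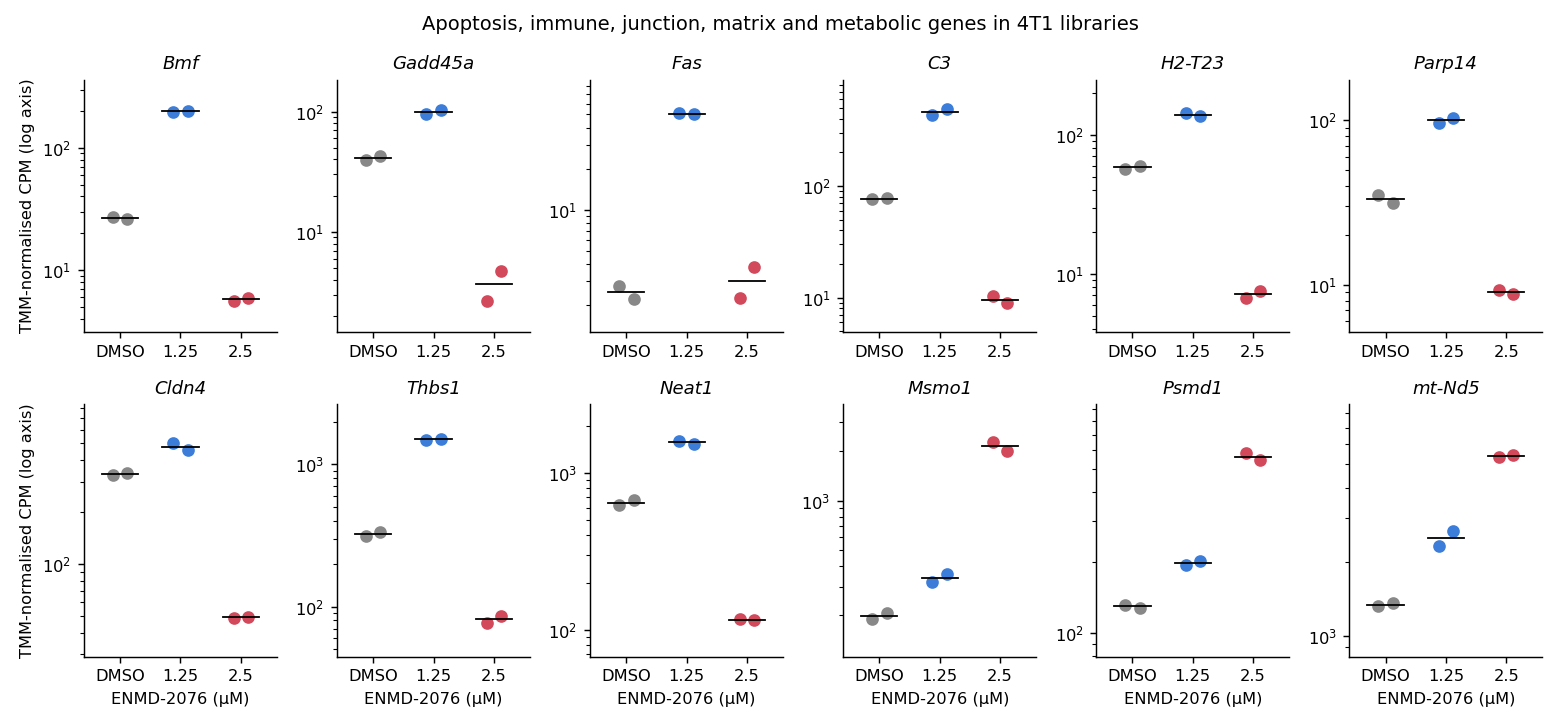
Levels of 12 genes of apoptosis, immunity, junctions, matrix, nuclear RNA, sterol synthesis, proteasome and mitochondria in DMSO, 1.25 µM and 2.5 µM libraries, as TMM-normalised CPM on log axes that differ between panels; points are libraries and lines means of 2. From Bmf to Neat1 both 1.25 µM libraries lie above the other 4, and in Msmo1, Psmd1 and mt-Nd5 the libraries stand in dose order.

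The largest rises of single genes were of another kind. By rule the 12 largest rises among genes over 10 CPM were named, and these were U1 small nuclear RNA and 11 protein-coding genes that stood under 1 CPM in both DMSO libraries. For all 11 the nearest expressed gene, 1.56 to 27.6 kb away, pointed its 3′ end at them. That orientation was also found for 9 of the 12 largest falls, and for 52.4% of the 9536 lowly expressed genes described below; within 30 kb it was found for 11 of the 12 rises and 4 of the 12 falls. Il17f, a cytokine gene of T cells (chromosome 1, 20777146 to 20790617, minus strand), had 898 and 607 reads at 2.5 µM, against 0 and 0 reads at 1.25 µM. That is at least 860-fold higher, with a floor of 3 reads over the group, and bounds and ratios from few reads cover counting error only. Upstream of it on the same strand lies Mcm3 (chromosome 1, 20802968 to 20820312), itself at 834 and 838 CPM against 20.4 and 22.5 CPM. Lct, the gut lactase gene, was at least 207-fold higher and lies 3272 bases past the end of Mcm6, which had 286 and 277 CPM against 36.7 and 35.4 CPM.

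The neighbour did not always pass as higher. Ampd1, the AMP deaminase of muscle, had 39.0 and 36.4 CPM at 2.5 µM, against 0.119 and 0.114 CPM at 1.25 µM. It lies 6100 bases past the end of Nras, which had 226 and 202 CPM against 246 and 255 CPM (log2 difference -0.23, SE 0.07, edgeR adjusted p = 0.00416). Cmya5, a muscle protein gene, had 640 reads in all at 2.5 µM against 3 at 1.25 µM, a ratio of 366 (95% counting interval 125 to 1780), and lies 1558 bases past Tent2, which had 25.1 and 28.1 CPM against 22 and 22.3 CPM and did not pass (log2 difference 0.26, SE 0.14, edgeR adjusted p = 0.099).

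Prompted by these values, all protein-coding genes under 0.5 CPM in DMSO were sorted by the position of the nearest gene at 20 CPM or more in DMSO. Genes that overlapped such a gene, 395 in number, were set aside and 9536 were kept. Where the expressed gene's 3′ end lay within 5 kb upstream on the same strand, 69 of 204 low genes reached 1 CPM at 2.5 µM (33.8%, Wilson 95% interval 27.7 to 40.6), against 3 of 204 at 1.25 µM (1.47%, 0.501 to 4.23). These intervals run over genes read in the same libraries and say nothing about variation between cultures. By library the share was 33.3 and 32.4% at 2.5 µM, against 2.45 and 1.96% at 1.25 µM. At 5 to 20 kb it was 18.9% at 2.5 µM and 3.10% at 1.25 µM, at 20 to 100 kb 6.56% and 0.800%, and over 100 kb 1.28% and 0.719%. The share thus declined with distance at the higher dose and stayed within a few percent at the lower.

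A 3′ end pointing at the gene from the opposite strand within 5 kb gave 22.7% at 2.5 µM, against 2.06% at 1.25 µM. Where the neighbour's 5′ end was the nearer one, the share was 8.24% at 2.5 µM against 1.18% at 1.25 µM on the same strand, and 5.74% against 1.64% on the opposite strand. Reads of both strands may be included, as the counting strand is not given in the sources used here. Of the 3044 genes over 2-fold higher, 745 were under 0.5 CPM in DMSO (24.5%), against 178 of the 3331 over 2-fold lower (5.34%). Among the 745, 411 were protein-coding and free of overlap, and 249 of the 411 (60.6%) lay within 20 kb of a 3′ end pointing at them. The share was 19 of 120 such genes among those over 2-fold lower (15.8%) and 1218 of the 9536 (12.8%). Genes this low in DMSO could pass the filter through the dose where they were higher. The higher and lower sets were thus picked by their own outcome, and these shares are descriptions without a test. Markers of other cell types that appeared at 2.5 µM included 2 low genes within 5 kb of a 3′ end pointing at them. Esam of endothelium, with 2.59 and 3.33 CPM against 0.0595 and 0.0852 CPM, lies 3.45 kb past Msantd2, and Apoa1 of liver, with a mean of 2.17 CPM against 0, lies 4.39 kb past Sik3. Other markers that were higher lay elsewhere. Pecam1, with a mean of 1.46 CPM against 0, and Tek, with 2.16 CPM against 0.178 CPM, both of endothelium, lie 29.7 kb and 46.1 kb past the nearest expressed gene. Cd79a of B cells, with 6.02 and 6.11 CPM against 0.119 and 0.256 CPM, has the 5′ end of Arhgef1 as its nearest. Cdh17 of gut, with 13.2 and 10.7 CPM against 0.416 and 0.539 CPM, was above 0.5 CPM in DMSO and so was not among the genes sorted. Whether reads past gene ends account for them was not tested.

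**Figure D4:**
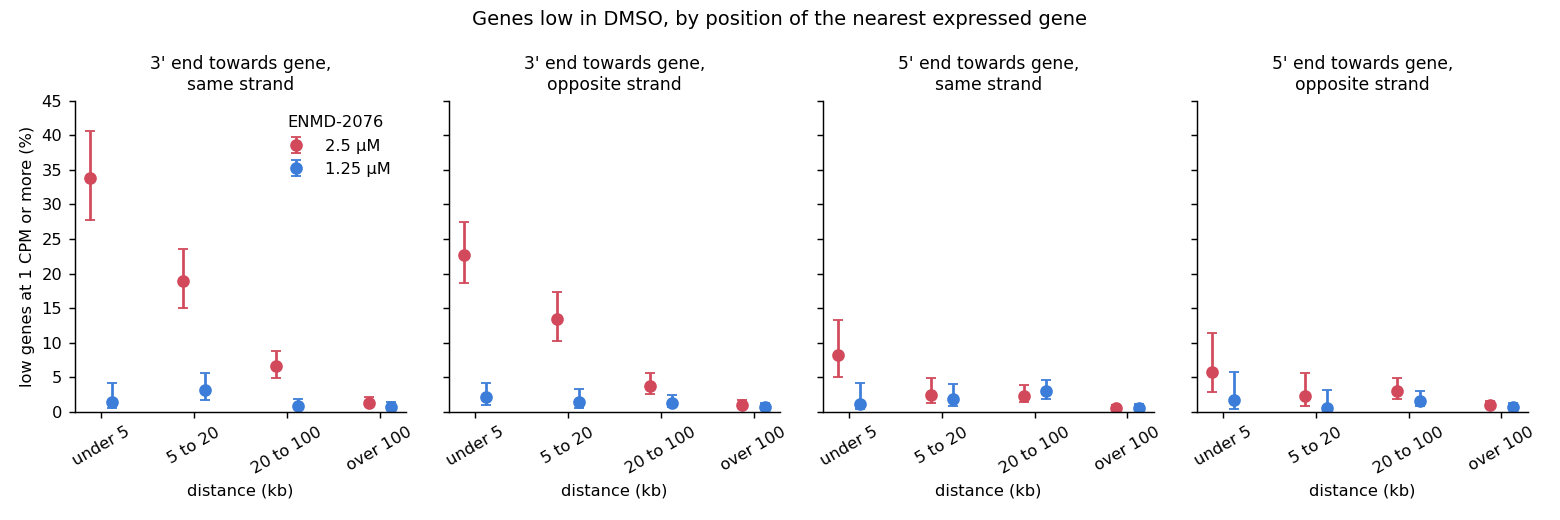
Percent of protein-coding genes under 0.5 CPM in DMSO that reached 1 CPM, by distance in kb to the nearest expressed gene and by which of its ends was nearer; red is 2.5 µM, blue is 1.25 µM, and bars are Wilson 95% intervals over genes. At 2.5 µM the share is 33.8% within 5 kb downstream on the same strand and 1.28% beyond 100 kb, and at 1.25 µM it is 1.47% and 0.719%.

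Small nuclear and nucleolar RNAs were also higher at 2.5 µM, and so were the sums of the other small RNA classes. Genes of miRNA summed to 1380 and 1360 CPM against 99.9 and 84.7 CPM, though of 12 tested 5 were higher and 3 lower. The ratio of sums was 4.26 for scaRNA, 2.83 for miscellaneous RNA and 3.4 for annotated rRNA. Small nuclear and nucleolar RNAs work in splicing and in rRNA modification, and have no poly(A) tail. Genes of small nuclear RNA summed to 223 and 198 CPM at 2.5 µM, against 10.8 and 15.8 CPM at 1.25 µM, with 14.5 and 13.4 CPM in DMSO. Of 1382 such IDs 30 had enough reads to be tested, and 13 of the 30 had no reads at 1.25 µM, so that they passed the filter through the 2.5 µM libraries and could differ in 1 direction only. Their calls are therefore not counted here. Genes of small nucleolar RNA summed to 467 and 464 CPM against 87.4 and 88.2 CPM. Of 1484 IDs 103 were tested, 2 of them with no reads at 1.25 µM, and 87 were higher and 1 lower. Others with few reads at 1.25 µM could also pass the filter through the 2.5 µM libraries, so this split is not free of that choice. The sums run over all IDs and do not depend on the filter.

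Both U1 and U2 of the major spliceosome and U11 and U12 of the minor one were among them. Rnu1a1, a U1 gene (chromosome 11, 87422867 to 87423030), had 362 and 209 reads at 2.5 µM, against 1 and 2 reads at 1.25 µM, a ratio of 326 (95% counting interval 111 to 1590). In the GENCODE transcripts 6 other gene IDs hold the same 164 bases, so reads of one U1 copy cannot be told from those of another. Rnu2-10, a U2 gene, had 70 and 49 reads against 0 and 0, at least 68-fold higher. Rnu11 had 130 and 78 reads against 0 and 0, at least 119-fold higher, and Rnu12 was at least 41.7-fold higher. The sequences of U1 (chr11:87422867-87423030) and U2 (chr11:101658238-101658428), both on the plus strand of GRCm38, are given because each has a known pairing stretch, set in capitals: in U1 the bases that pair with the 5′ splice site, and in U2 those that pair with the branch point.
Rnu1a1: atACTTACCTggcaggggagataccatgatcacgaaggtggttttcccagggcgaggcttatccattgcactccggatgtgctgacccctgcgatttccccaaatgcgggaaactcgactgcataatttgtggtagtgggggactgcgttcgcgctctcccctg
Rnu2-10: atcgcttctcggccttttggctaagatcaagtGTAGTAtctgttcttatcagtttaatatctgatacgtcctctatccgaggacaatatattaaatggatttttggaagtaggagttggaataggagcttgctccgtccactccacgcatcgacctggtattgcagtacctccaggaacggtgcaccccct
Both are given as DNA letters, as in that annotation.

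**Figure D5:**
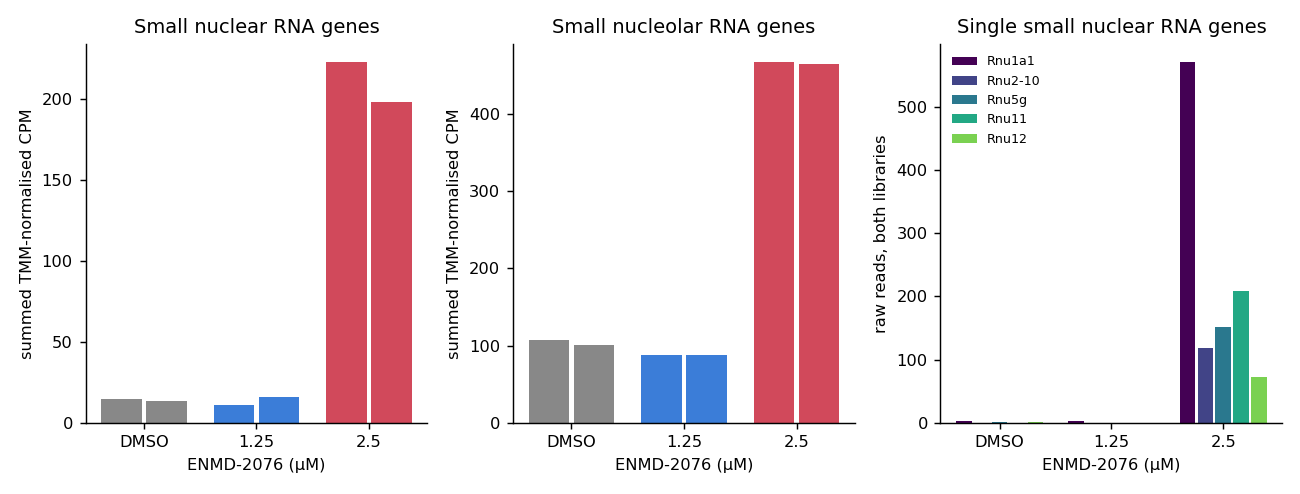
Reads of small RNA genes in DMSO, 1.25 µM and 2.5 µM libraries. The left and middle panels give the summed TMM-normalised CPM of small nuclear and small nucleolar RNA genes with 1 bar per library, and the right panel the raw reads of 5 small nuclear RNA genes over both libraries of a group; the 2.5 µM libraries are highest throughout.

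Ribosomal RNA-like and nuclear RNAs differed too. Gm26917, a transcript that resembles ribosomal RNA, had 2545 and 2297 CPM at 2.5 µM, against 43.4 and 36.6 CPM at 1.25 µM (log2 difference 5.93, SE 0.09, edgeR adjusted p = 3.30e-26), and such genes together took 0.709 and 0.687% of reads against 0.0840 and 0.0586%. Lars2, a gene annotated for mitochondrial leucyl-tRNA synthetase, had 2287 and 2169 CPM against 157 and 106 CPM. Neat1, the long RNA that scaffolds nuclear paraspeckles, went the other way, with 118 and 116 CPM against 1594 and 1529 CPM, and 623 and 671 CPM in DMSO (log2 difference -3.74, SE 0.07, edgeR adjusted p = 6.68e-25). The part of RNA selection or quality in these differences, and in the higher histone reads above, was not tested.

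The remaining lists were mixed. Splicing factors had 22 of 31 members higher and 6 lower, NRF2 targets of the oxidative stress response 11 of 18 higher and 4 lower, and heat shock genes 9 of 14 higher and 5 lower. Under total-count scaling the splicing factors had 14 higher and 12 lower, and the NRF2 targets 7 higher and 6 lower. The largest rises of the heat shock list were Hspd1 and Hspe1, which form the chaperonin of mitochondria and not of the cytosol. Hspd1 had 1786 and 1642 CPM at 2.5 µM, against 403 and 437 CPM at 1.25 µM, and Hspe1 had 416 and 390.1 CPM against 94.1 and 96.4 CPM. Fth1, ferritin heavy chain, had 3324 and 3238 CPM against 1029 and 1004 CPM. Lysosome and autophagy genes had 9 of 30 higher and 17 lower, Hippo pathway and YAP target genes 6 of 17 higher and 11 lower, and Notch and Wnt genes 7 of 19 higher and 12 lower. Under total-count scaling these splits were 5 higher and 22 lower, 3 and 11, and 1 and 12. The Notch and Wnt genes called higher were 4 without library 1 of 2.5 µM, 3 without library 2 of 1.25 µM and 3 with DESeq2. Lats2, the kinase that holds YAP in the cytoplasm, had 160.2 and 153 CPM against 42.0 and 42.4 CPM (log2 difference 1.89, SE 0.08, edgeR adjusted p = 4.88e-17), and the YAP target Ankrd1 had 67.0 and 77.6 CPM against 294 and 276 CPM (log2 difference -1.98, SE 0.08, edgeR adjusted p = 6.19e-18). Of 13 checkpoint and NK cell ligands 2 were higher (1 without library 2 of either dose) and 9 lower, with Cd47, the signal that holds off phagocytes, at 44.2 and 47.8 CPM against 191 and 213 CPM. Among 5 tested CDK inhibitors Cdkn2d, p19, was higher, with 47.2 and 45.1 CPM against 2.92 and 6.10 CPM; 2 were higher without library 1 of 1.25 µM, and 3 with all 6 libraries in the fit. Cdkn2c, p18, had a log2 difference of -0.15 (SE 0.07, edgeR adjusted p = 0.0488), a call lost without library 1 or 2 of 2.5 µM or library 2 of 1.25 µM (edgeR adjusted p = 0.111, 0.208 and 0.0716), with the replicate block (0.056), with median-of-ratios factors (0.287) and with DESeq2 (0.208). Cdkn1b, p27, and Cdkn1a, p21, did not pass (log2 differences -0.09 and 0.65, edgeR adjusted p = 0.235 and 0.127; both named after their values were seen).

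The largest falls of single genes, named by the same rule, included the following. Klhdc7a, which encodes a kelch protein, had 1 read in all at 2.5 µM against 2128 at 1.25 µM, a ratio of 1240 lower (95% counting interval 223 to 49100). Slc40a1, the iron exporter ferroportin, had 2.36 and 1.51 CPM against 127 and 135 CPM, with 7.71 and 9.10 CPM in DMSO (log2 difference -6.03, SE 0.15, edgeR adjusted p = 5.67e-22). Scn3a, a sodium channel gene, had 2.19 and 1.51 CPM against 96.5 and 106 CPM. Tcp11l2 had 0.225 and 0.159 CPM against 35.8 and 38.2 CPM, and here the 1.25 µM libraries stood near DMSO, at 29.9 and 31.6 CPM. Across the tested protein-coding genes, the fifth with the longest span, 67.6 kb and more, had a median log2 difference of -0.48 with 25.7% higher and 54.0% lower. Shorter ones, split by span into 4 groups of the same size, had medians from -0.09 to 0.09.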

How the data were processed

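RNA libraries were made with the NEBNext Ultra kit and sequenced on a HiSeq instrument, per the labels. The authors deposited 1 table of raw counts per gene for each library, and per the submitters' processing notes the tools were FastQC 0.11.3, Bowtie, TopHat, HTSeq and DESeq2, with mm10 for mouse. Annotation and counting strand are not stated. The growth protocol gives 1 or 2 µM for 4T1 where labels and design give 1.25 or 2.5 µM. The column headers of both pairs read 10 µM and name no compound. They differ between the pairs by an index only, with 4T1_2_10uM for the pair labelled 2.5 µM and 4T1_1_10uM for the pair labelled 1.25 µM. The titles carry the same index. The treatment labels were followed.

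Of 38924 gene IDs 37607 matched GENCODE mouse release 21 (GRCm38, the assembly of mm10), which gave names and coordinates. Counts of the 4 libraries were filtered (filterByExpr), scaled by TMM and tested with edgeR 4.0.16 under R 4.3.3 (glmQLFit, glmQLFTest, two-sided), with Benjamini-Hochberg adjustment over all genes tested and a threshold of 0.05. SE is the size of the log2 difference over the square root of F. TMM factors were 0.859 and 0.873 at 2.5 µM, against 1.166 and 1.142 at 1.25 µM. A floor of 3 reads was 0.169 and 0.238 CPM at 2.5 µM, against 0.179 and 0.0852 CPM at 1.25 µM. The script was tested on simulated data. Libraries of a pair were not duplicates (chi-square per degree of freedom 4.26 and 7.32, and 267 to 435 across the doses).

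The libraries and gene lists were chosen with earlier results of these data known. Named by rule were Aurka and Aurkb, per list up to 2 members in its main direction and 1 in the other, past the threshold and at 5 CPM or more, and the 12 largest rises and falls with the higher group at 10 CPM or more, without predicted genes. Names outside the rule are neighbours, markers, small RNAs of the classes described, or said to be chosen afterwards. Some genes that the rule named are not reported here. Alternatives were other scalings, filters, tests, samples and each library left out (DESeq2 1.42.0 among them).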

Additional observations from a re-analysis of the deposited data

How the results depend on the processing

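The count of genes past the threshold, 10225, was 9506 to 10012 when each of the 4 libraries was left out in turn, and 7303 when tested against a fold of 1.5. It was 10255 with median-of-ratios size factors, 10561 with total counts, 10203 without mitochondrial and rRNA-like genes, 10477 without a filter, 10445 with all 6 and 11264 with all 12 libraries labelled 4T1 in the fit, and 9703 with DESeq2. Total-count scaling turned the split of 5032 higher and 5193 lower (49.2% higher) into 3768 and 6793 (35.7% higher). The count of list members past the threshold, 981 of 1097, was 946 to 1004 over all settings tried for it. Replicate numbers did not pair libraries across doses (correlation of deviations -0.02). With the replicate number as a block, 9955 genes and 972 list members passed.

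Of 98 counts of list members in 1 direction, 27 moved by over 1.5 times with total-count scaling, 5 to 7 when 1 library was left out and 1 to 5 under the other settings. Of 164 named genes 154 kept direction and call under every alternative. The log2 difference of Mlxip, 0.36, turned to -0.06 with total-count scaling. Lists whose majority turned under that scaling were AP-1 and immediate early genes (7 higher and 6 lower, then 4 and 8), MYC and partners (4 and 3, then 2 and 6), fatty acid synthesis (7 and 6, then 6 and 10), mitochondrial ribosomal proteins and the replication stress checkpoint. The share of low genes seen within 5 kb downstream, 33.8% at 2.5 µM against 1.47% at 1.25 µM, was 43.6 against 8.33% at 0.5 CPM, 22.1 against 0.98% at 2 CPM, 31.4 against 1.96% without TMM factors, and 35.8 against 5.39% with at least 10 reads in both libraries. These 4 limits were chosen after seeing the data. With 2 libraries a dose, depth limits genes near the floor of 3 reads, and 7139 genes with reads were below the filter.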
